A study of Mus musculus with 18 samples.

Results

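The CC chemokines followed here are 10 genes, Ccl2, Ccl3, Ccl4, Ccl5, Ccl6, Ccl7, Ccl9, Ccl12, Ccl17 and Ccl22, out of 22852 gene symbols counted in every sample. They were chosen by name, with earlier results of these data known. All 10 symbols were listed in all 18 samples, though Ccl17 and Ccl22 had no reads in most of them. Of the 10, 9 passed the expression filter that left 11305 genes for testing. Ccl17 did not pass, and Ccl22 passed only through the group in which it was high. The samples were RNA-Seq libraries of bone marrow-derived macrophages (BMDMs), which are macrophages grown from the marrow of C57BL/6 female mice with L929 cell conditioned medium. There were 3 biological replicates in each of 6 groups. Unstimulated BMDMs received nothing. LPS-stimulated BMDMs received a single low dose of LPS (10 ng/ml), given for 3 h in the treatment scheme of the study. LPS-primed BMDMs received 100 ng/ml for 24 h. LPS-tolerant BMDMs received the same priming dose and then fresh medium with 10 ng/ml LPS for 3 h. The last 2 groups were LPS-primed and LPS-tolerant BMDMs that were given 25 µM carboplatin, a platinum drug that crosslinks DNA, 1 h before the priming dose. The age of the mice is not given in the sources used here, nor is it stated whether same-numbered replicates came from the same mouse, so p-values measure the spread between these cultures.

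CC chemokines are small secreted proteins with a pair of adjacent cysteines near the amino terminus that draw leukocytes along a gradient through G protein-coupled receptors. Macrophages are a main source of them once LPS, a component of the outer membrane of Gram-negative bacteria, is sensed by TLR4. Signals through MyD88 and through TRIF reach NF-κB, AP-1 and interferon regulatory factors, and chemokine genes differ in how much they depend on each. In LPS tolerance, macrophages that have met LPS answer a second dose with less of many inflammatory cytokines, while other genes remain inducible. Ccl2, Ccl7 and Ccl12 encode ligands of CCR2 that attract monocytes. Ccl3, Ccl4 and Ccl5 encode inflammatory chemokines that attract monocytes and T cells, and Ccl3 and Ccl5 bind CCR1. Ccl6 and Ccl9 encode rodent ligands of CCR1. Ccl17 and Ccl22 encode the ligands of CCR4, a receptor of T helper and regulatory T cells.

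In the GRCm39 build, 8 of these genes lie on chromosome 11, in a pair of clusters. Ccl2 (81926397 to 81928279, plus strand), Ccl7 (81936532 to 81938351, plus strand) and Ccl12 (81992645 to 81994466, plus strand) form the first. The second holds Ccl5 (83416602 to 83425942, minus strand), Ccl9 (83463745 to 83473161, minus strand), Ccl6 (83478708 to 83483913, minus strand), Ccl3 (83538670 to 83540191, minus strand) and Ccl4 (83553383 to 83555509, plus strand), with 1422.1 kb between the clusters. Ccl22 (95471226 to 95478327) and Ccl17 (95534358 to 95538664) are 56.0 kb apart on the plus strand of chromosome 8. All 10 are protein-coding genes. The coding strands of Ccl3, Ccl5, Ccl6 and Ccl9 face annotated genes on the opposite strand. The libraries were stranded, but the strand option of the counting is not given in the sources used here, so reads of these 4 genes and of their antisense partners cannot be told apart.

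The 250 bases before the annotated start of the canonical transcript are shown for Ccl2 and Ccl7, neighbours with the most similar levels across the samples, and for Ccl5, the member with the highest level per length in LPS-primed cells. They were read from the GRCm39 genome, 5′ to 3′ on the coding strand. Capitals mark matches on either strand to the NF-κB letters (GGGA, any 2 bases, TTCC), the interferon-response letters (GAAA, any 2 bases, GAAA), the AP-1 letters TGANTCA or the TATA letters TATAAA.
Ccl2 (chr11:81926147-81926396, plus strand): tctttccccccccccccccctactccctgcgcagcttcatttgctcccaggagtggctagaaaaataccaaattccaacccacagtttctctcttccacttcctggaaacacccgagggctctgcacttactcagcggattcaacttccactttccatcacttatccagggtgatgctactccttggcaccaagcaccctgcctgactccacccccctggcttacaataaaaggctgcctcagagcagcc
Ccl7 (chr11:81936282-81936531, plus strand): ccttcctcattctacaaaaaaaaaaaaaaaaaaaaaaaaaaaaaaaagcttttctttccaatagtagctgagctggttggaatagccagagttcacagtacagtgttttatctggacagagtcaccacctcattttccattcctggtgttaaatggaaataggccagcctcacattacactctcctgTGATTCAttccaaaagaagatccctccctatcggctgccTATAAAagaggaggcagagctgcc
Ccl5 (chr11:83421346-83421595, minus strand): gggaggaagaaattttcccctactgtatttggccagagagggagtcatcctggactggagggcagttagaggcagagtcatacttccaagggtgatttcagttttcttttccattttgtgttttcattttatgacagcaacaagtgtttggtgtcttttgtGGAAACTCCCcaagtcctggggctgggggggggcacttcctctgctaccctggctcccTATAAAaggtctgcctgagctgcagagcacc
The Ccl5 window holds the NF-κB letters once, 89 to 80 bases before the start, and the TATA letters 31 to 26 bases before it. The Ccl7 window holds an AP-1 match 63 to 57 bases and a TATA match 24 to 19 bases before the start. The Ccl2 window holds none of the 4 sets of letters. Of the 10 genes, 1 had the NF-κB letters, against 1.31% of 21757 promoter windows of the same length. The interferon-response letters were in 0 of 10 (3.32% of all windows), the AP-1 letters in 2 of 10, Ccl7 and Ccl9 (6.18%), and the TATA letters in 3 of 10, Ccl7, Ccl5 and Ccl9 (11.9%). A match is a description of these letters and says nothing of binding.

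Libraries held 6869667 to 14708099 gene-assigned read pairs (median 8986463). Summed macrophage markers (8 of 8 tested) lay between 12274 and 30566 CPM, counts scaled to the library total. Summed dendritic cell markers lay between 0.245 and 2.54 CPM, highest in LPS-stimulated BMDMs (1.92 to 2.54), with 0 of 7 markers passing the filter. Cd3d, Cd3e and Cd3g, which define T cells, were at 0 in all samples, and neutrophil, B cell and mast cell lists summed to 4.31 CPM or less. The summed stromal list was at 0.0881 to 0.684 CPM in unstimulated and 2.44 to 5.51 in LPS-stimulated BMDMs. It was at 4.32 to 8.56 in LPS-primed and 5.44 to 9.07 in LPS-tolerant BMDMs. Most of this was Pdgfrb in LPS-stimulated (mean 2.42 CPM) and Dcn in LPS-primed (4.88) and LPS-tolerant BMDMs (5.7). Col1a1, Col1a2, Col3a1 and Pdgfra had means of 0.237 CPM or less in every group. The part of this list in the chemokine changes was not tested. In bulk libraries, fewer cells that express a gene and less RNA per cell cannot be told apart. Replicate 1 stood apart for the CCR2 ligands. Ccl2 and Ccl7 were highest in replicate 1 in 6 of 6 groups, at a median of 2.80 and 3.38 times the mean of the other 2 replicates, while 812 of 11305 tested genes (7.18%) had replicate 1 highest in all 6 groups. Unstimulated replicate 1 also held the highest unstimulated values of Ccl12, Ccl3, Ccl4, Ccl5 and Ccl9. What set replicate 1 apart was not tested.

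The single dose of LPS raised most of the measured members. Counts of members are given over the 8 genes on chromosome 11, because Ccl22 was tested only through its high group, and its reads are described apart. In LPS-stimulated against unstimulated BMDMs, 7 of these 8 rose and 0 fell at an adjusted p under 0.05 in edgeR, where 24.3% of all tested genes rose and 26.9% fell. All 7 exceeded a log2FC of 2, a level that 6.42% of tested genes passed upward. Ccl6 was the exception. After 24 h of the priming dose, 6 of 8 were above the unstimulated level and 0 below it, where 12.1% of all tested genes were higher and 13.1% lower. The second dose was met by a narrower set. In LPS-tolerant against LPS-primed BMDMs, 2 of 8 rose (Ccl3 and Ccl4) and 0 fell, where 3.60% of tested genes rose and 2.71% fell. With the replicate number as a block, Ccl2 and Ccl7 rose as well, giving 4 of 8, where 9.67% of tested genes rose. With carboplatin 0 of 8 passed in either state, where 0.372% and 0.425% of all tested genes did, so a count of 0 is close to that background.

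**Figure D1:**
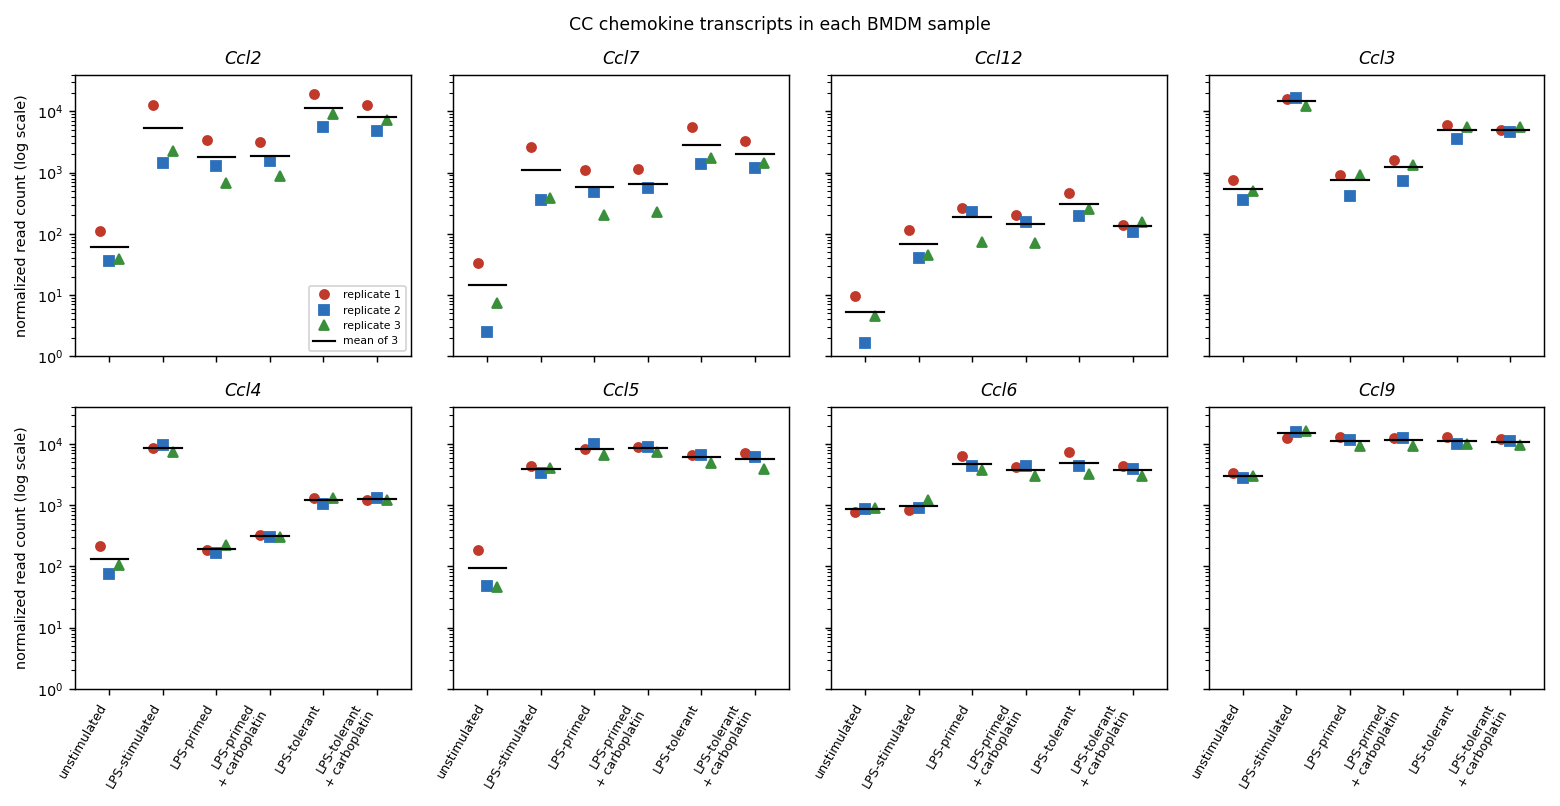
Normalized read counts (log scale) of the 8 CC chemokines on chromosome 11 in each of the 18 BMDM samples, with 1 marker shape per replicate number and a bar for the mean of 3 replicates. Ccl3 and Ccl4 are highest in LPS-stimulated BMDMs and return toward the unstimulated level in LPS-primed BMDMs, while Ccl5, Ccl6 and Ccl9 keep their LPS-primed level after the second dose. Replicate 1 is the highest of the 3 in every group for Ccl2 and Ccl7.

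Ccl2, the main monocyte attractant of macrophages, was at 109.9, 36.1 and 39.1 normalized read counts in unstimulated replicates 1 to 3. It reached 12484, 1427 and 2224 in LPS-stimulated BMDMs. The groups did not overlap, and the log2FC was 6.45 (SE 0.97, adjusted p = 3.62e-05, edgeR). In LPS-primed BMDMs Ccl2 was at 3411, 1285 and 688, still clear of the unstimulated samples, with a log2FC of 4.87 (SE 0.91, adjusted p = 0.000709) over them. The second dose brought the highest mean level of the 6 groups, from 19219.5, 5601 and 8968 in LPS-tolerant BMDMs, all above all LPS-primed samples. The second dose had a log2FC of 2.65 (SE 0.80, adjusted p = 0.0578). In the fit with a replicate block this was 2.75 (SE 0.34, adjusted p = 3e-05), and Ccl2 was higher in 3 of 3 pairs. The size of the first response depended on single libraries, at 7.17 without unstimulated replicate 1 and 4.90 without LPS-stimulated replicate 1, and the 24 h level was 5.59 without unstimulated replicate 1 and 4.01 without LPS-primed replicate 1. For the second dose, without LPS-primed replicate 1, the unblocked test gave a log2FC of 3.51 (adjusted p = 0.0398).

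Ccl7, which lies 8.3 kb from Ccl2, followed the same course at a lower level. It went from 33.5, 2.46 and 7.27 normalized read counts in unstimulated BMDMs to 2607, 356 and 390.4 after the single dose. LPS-primed BMDMs had 1092, 483 and 201, and LPS-tolerant BMDMs had 5475, 1359 and 1707. The unstimulated samples lay below all others, and all LPS-tolerant samples lay above all LPS-primed samples. The log2FC of the first response was 6.31 (SE 1.12, adjusted p = 0.000183), while that of the 24 h level was 5.39 (SE 1.10, adjusted p = 0.00143). The second dose gave 2.27 (SE 0.86, adjusted p = 0.133), a value that the block left at 2.27 (SE 0.33, adjusted p = 0.000134). The first response of Ccl7 was 7.85 without unstimulated replicate 1 and 4.73 without LPS-stimulated replicate 1, and its 24 h level was 6.94 without unstimulated replicate 1 and 4.6 without LPS-primed replicate 1. Across the 18 samples, log2 CPM of Ccl2 and Ccl7 had a Pearson r of 0.99, a description over samples that share libraries, depth and treatment.

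Ccl12, the third CCR2 ligand, was the scarcest of the chromosome 11 genes and stood higher at 24 h than after the single dose. Unstimulated BMDMs had 9.56, 1.64 and 4.54 normalized read counts, and LPS-stimulated BMDMs had 117, 40.1 and 44.4 (log2FC 3.66, SE 0.70, adjusted p = 0.000364). LPS-primed BMDMs had 262, 227 and 72.2, a log2FC of 5.16 (SE 0.69, adjusted p = 2.75e-05) over unstimulated cells. The second dose left it at 458, 195 and 255, which overlapped with the LPS-primed samples, and the log2FC of 0.69 (SE 0.50, 95% interval -0.36 to 1.75, adjusted p = 0.468) did not pass. Its highest value per group was in replicate 1 in 5 of 6 groups. Without unstimulated replicate 1 its first response was 4.40 and its 24 h level 5.90, and without LPS-stimulated replicate 1 the first response was 3.02.

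Ccl3 and Ccl4, neighbours 13.2 kb apart, were high after the single dose, low in LPS-primed BMDMs and high again after the second dose. Ccl3 was at 758, 361 and 503 normalized read counts in unstimulated BMDMs and at 15917, 16664 and 12230.1 in LPS-stimulated BMDMs (log2FC 4.79, SE 0.38, adjusted p = 3.03e-08). In LPS-primed BMDMs it was back at 910.2, 414 and 928, overlapping with the unstimulated samples (log2FC 0.48, SE 0.33, adjusted p = 0.334). The second dose lifted it again in all 3 pairs, to 5981, 3564 and 5473, with a log2FC of 2.74 (SE 0.35, adjusted p = 0.000188). These LPS-tolerant values were all below those of LPS-stimulated BMDMs, by a log2FC of -1.58 (SE 0.33, adjusted p = 0.00133).

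Ccl4 had a stronger first response than Ccl3, from 213, 73.8 and 105 to 8600.2, 9635 and 7486 normalized read counts, with a log2FC of 6.04 (SE 0.31, adjusted p = 1.73e-10). LPS-primed BMDMs had 185, 163 and 224. That level overlapped with the unstimulated one (log2FC 0.55, SE 0.26, adjusted p = 0.142), and without unstimulated replicate 1 it was higher by a log2FC of 1.11 (adjusted p = 0.000489). The second dose brought 1319, 1030.3 and 1298, a log2FC of 2.67 (SE 0.27, adjusted p = 3.19e-05). Compared to the single dose, LPS-tolerant BMDMs held less Ccl4 without overlap, with a log2FC of -2.82 (SE 0.26, adjusted p = 4.6e-07). Ccl3 and Ccl4 had a Pearson r of 0.97 across the 18 samples.

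Ccl5 behaved in another way than Ccl3 and Ccl4. It was at 185, 48.4 and 45.4 normalized read counts in unstimulated BMDMs and at 4356, 3405 and 4046 after the single dose (log2FC 5.41, SE 0.44, adjusted p = 4.06e-08). At 24 h of priming it stood at 8434, 9847 and 6724, above every LPS-stimulated sample, with a log2FC of 6.49 over unstimulated cells (SE 0.46, adjusted p = 2.2e-08). Without unstimulated replicate 1 these values were 6.40 and 7.48. The second dose gave 6737, 6711 and 4915, lower in 3 of 3 pairs but overlapping, with a log2FC of -0.45 (SE 0.36, 95% interval -1.20 to 0.31, adjusted p = 0.532). No further rise in Ccl5 was seen after re-exposure, and the interval leaves room for one of at most 0.31 on the log2 scale.

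Ccl6 and Ccl9, which are transcribed side by side 5.5 kb apart, were both well detected before any LPS and differed after the single dose. Ccl9 was at 3367, 2797 and 2992 normalized read counts in unstimulated BMDMs and rose to 12505, 15937 and 16398 after the single dose (log2FC 2.29, SE 0.18, adjusted p = 2.34e-08). It stayed high at 13058, 11560.4 and 9248 in LPS-primed BMDMs (log2FC 1.89, SE 0.18, adjusted p = 5.01e-07 against unstimulated). Ccl6 was at 785, 883 and 914 in unstimulated and at 828, 904 and 1201 in LPS-stimulated BMDMs, with a log2FC of 0.18 (SE 0.26, 95% interval -0.37 to 0.74, adjusted p = 0.587), or -0.15 when scaled by library size alone. It was the member with no detected response to the single dose, and in LPS-primed BMDMs it was at 6277, 4362 and 3695 (log2FC 2.47, SE 0.28, adjusted p = 4e-06). The second dose moved neither gene past the test. LPS-tolerant BMDMs had 7277, 4303 and 3238 counts of Ccl6 (log2FC 0.05, SE 0.26, adjusted p = 0.953) and 13129, 10119 and 9919.9 of Ccl9 (log2FC -0.03, SE 0.17, adjusted p = 0.955). Part of the Ccl9 transcript is repeated elsewhere, since 2.63% of its 50-base words occur in transcripts of other genes, and 0 of those of the other 9 members do.

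Ccl22 and Ccl17, the CCR4 ligands, were seen almost only after the single low dose. Ccl22 had 163, 72 and 134 reads in LPS-stimulated BMDMs and 1, 0 and 0 reads in unstimulated BMDMs, a ratio of 377 after scaling for depth (95% counting interval 67.2 to 14918). LPS-primed BMDMs had 0 reads of Ccl22 in all 3 samples, so that the LPS-stimulated level was at least 108-fold higher, taking 3 reads over the group as the floor. Its level did not return with the second dose, with 0, 0 and 1 reads in LPS-tolerant BMDMs (ratio of LPS-stimulated to LPS-tolerant 327, interval 58.3 to 12936). Ccl17 had 20, 1 and 8 reads in LPS-stimulated BMDMs and 0 reads in all unstimulated, LPS-primed and LPS-tolerant samples, at least 9.87-fold, 8.47-fold and 8.56-fold more. With 1 read in 1 of its 3 samples, LPS-stimulated BMDMs were not uniform for Ccl17. These intervals and floors cover counting error only. The sums of dendritic cell markers and of T cell markers (3.57 to 5.26 CPM, against 2.05 or less elsewhere) were also highest in LPS-stimulated BMDMs. The T cell sum there was mostly Lck, at a mean of 3.6 CPM against 0.649 in unstimulated BMDMs. Cd3d, Cd3e, Cd3g and Trac were at 0 there, and Cd2 was lower than in unstimulated BMDMs (0.647 against 1.23 CPM). The part of these lists in the Ccl17 and Ccl22 reads was not tested.

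**Figure D2:**
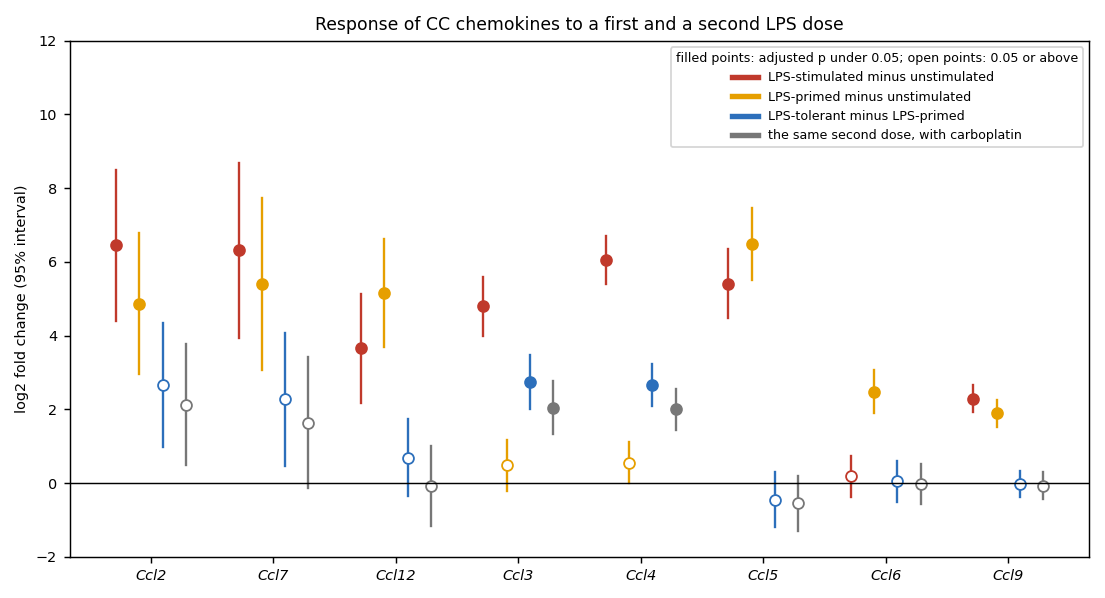
Log2 fold changes with 95% intervals of the 8 CC chemokines on chromosome 11 for the first response, the 24 h level, and the second dose without and with carboplatin, from a fit with no replicate block. Filled points have an adjusted p under 0.05. The first response is above 2 for every gene except Ccl6, and for the second dose only Ccl3 and Ccl4 carry filled points.

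The 24 h high dose and the 3 h low dose left different chemokines high. LPS-primed against LPS-stimulated BMDMs differ in both dose and time, which cannot be told apart. Here 3 of 8 were higher (22% of tested genes were) and 2 were lower (22.6%). Ccl6 was higher by a log2FC of 2.29 (SE 0.28, adjusted p = 5.04e-06), Ccl12 by 1.5 (SE 0.53, adjusted p = 0.0282) and Ccl5 by 1.08 (SE 0.36, adjusted p = 0.0227). Ccl4 was lower by a log2FC of -5.49 (SE 0.30, adjusted p = 8.11e-10) and Ccl3 by -4.31 (SE 0.37, adjusted p = 1.36e-07), with Ccl22 at 0 reads. The Ccl12 call was lost without LPS-primed replicate 1 (adjusted p = 0.115) or 2 (0.0792), or without LPS-stimulated replicate 2 (0.118) or 3 (0.105). The Ccl5 call was lost without LPS-primed replicate 2 (adjusted p = 0.0727) or LPS-stimulated replicate 2 (0.0793) or 3 (0.0541). For Ccl2, with a log2FC of -1.58 (SE 0.77, adjusted p = 0.104), the 2 groups overlapped, and the difference passed without LPS-primed replicate 1 (log2FC -2.44, adjusted p = 0.0357) or LPS-stimulated replicate 2 (-2.03, 0.0482). Ccl9, at a log2FC of -0.40 (SE 0.17, adjusted p = 0.0629), passed without LPS-primed replicate 1 (adjusted p = 0.0394) or LPS-stimulated replicate 1 (0.0279). For Ccl7 the log2FC was -0.91 (SE 0.83, adjusted p = 0.389), but without LPS-stimulated replicate 1 it was 0.67 (adjusted p = 0.519).

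The same low dose met naive cells in one group and primed cells in the other. LPS-tolerant against LPS-stimulated BMDMs had 2 of 8 higher (16.2% of tested genes) and 2 lower (18.3%), or 4 higher (22.9%) and 3 lower (24.7%) in the fit with the replicate block. Ccl6 was higher by a log2FC of 2.34 (SE 0.28, adjusted p = 6.1e-06) and Ccl12 by 2.19 (SE 0.53, adjusted p = 0.00381), both without overlap, and both were already high in LPS-primed BMDMs. Ccl3 and Ccl4 were lower, with the values given above. The monocyte attractants Ccl2 (log2FC 1.07, SE 0.76, adjusted p = 0.299) and Ccl7 (1.35, SE 0.83, adjusted p = 0.228) passed with the replicate block, at log2FC 1.45 (SE 0.33, adjusted p = 0.00139) and 1.65 (SE 0.32, adjusted p = 0.000353), each higher in 3 of 3 pairs. They also passed without LPS-stimulated replicate 1 (log2FC 2.62, adjusted p = 0.0131 for Ccl2, and 2.93, 0.0159 for Ccl7). Ccl9 was at a log2FC of -0.44 (SE 0.17, adjusted p = 0.0577), and at -0.46 (SE 0.14, adjusted p = 0.0114) with the block. It passed as well without LPS-tolerant replicate 1 (adjusted p = 0.03) or LPS-stimulated replicate 1 (0.0266). Ccl5 differed by 0.64 (SE 0.36, adjusted p = 0.189) with groups that did not overlap.

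The drop in response between the first and the second dose was tested as the difference of the 2 log2FC values. It fell for 7 of 8 members and rose for 0, where 13.3% of tested genes fell and 10.5% rose. The first response starts from unstimulated and the second from LPS-primed BMDMs, so the baselines of the 2 responses differ. Among these 7 the loss was largest for Ccl5, with a difference of -5.85 (SE 0.56, adjusted p = 8.4e-07), from a gain of 5.41 to -0.45. Ccl4 had a difference of -3.37 (SE 0.37, adjusted p = 3.78e-06), Ccl9 had -2.32 (SE 0.24, adjusted p = 2.54e-06) and Ccl3 had -2.05 (SE 0.47, adjusted p = 0.00382). The CCR2 ligands had differences of -3.80 for Ccl2 (SE 1.13, adjusted p = 0.0212), -4.04 for Ccl7 (SE 1.35, adjusted p = 0.0381) and -2.97 for Ccl12 (SE 0.87, adjusted p = 0.0199), though Ccl2 and Ccl7 had their highest mean levels after the second dose. Ccl6, with -0.14 (SE 0.37, adjusted p = 0.836), had passed the test in neither response. For Ccl22, with 0 reads in LPS-primed BMDMs, no such difference could be estimated. The calls of the CCR2 ligands were the fragile ones. The limma-voom test gave adjusted p = 0.0981, 0.206 and 0.126 for Ccl2, Ccl7 and Ccl12. The Ccl2 call was lost without unstimulated replicate 2 or 3, LPS-primed replicate 1, LPS-tolerant replicate 2 or 3, or LPS-stimulated replicate 1 (adjusted p from 0.0503 to 0.0916). The Ccl7 call was lost without each of these and without LPS-primed replicate 2 (0.0505 to 0.143), and in a fit of the compared groups alone (0.0509). The Ccl12 call was lost without unstimulated replicate 2 (0.0657) or LPS-stimulated replicate 1 (0.0527).

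Levels of different genes were compared as RPKM, CPM per kilobase of exon. The 10 genes summed to 269.7 ± 60.3 RPKM (SD, n = 3) in unstimulated BMDMs and to 5067 ± 924 after the single dose, where Ccl3 ranked 7 of 11002 genes. The sum was 1951 ± 429 in LPS-primed and 3680 ± 1356 in LPS-tolerant BMDMs. The make-up turned over between these states. In unstimulated BMDMs, Ccl9 held 39.8% ± 4.82 of the sum and Ccl3 27.2% ± 4.2. After the single dose, Ccl3 held 41.1% ± 5.04 and Ccl4 26.8% ± 4.14. In LPS-primed BMDMs, Ccl5 held 45.3% ± 7.36, with Ccl3 and Ccl4 down to 5.59% ± 2.83 and 1.61% ± 0.620. In LPS-tolerant BMDMs, Ccl2 led with 27.2% ± 7.55, followed by Ccl3 with 19.5% ± 4.36 and Ccl5 with 18.7% ± 6.56, an order whose neighbours lie within each other's SD. Shares of a sum are not independent, since one gene's rise lowers the others' share.

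**Figure D3:**
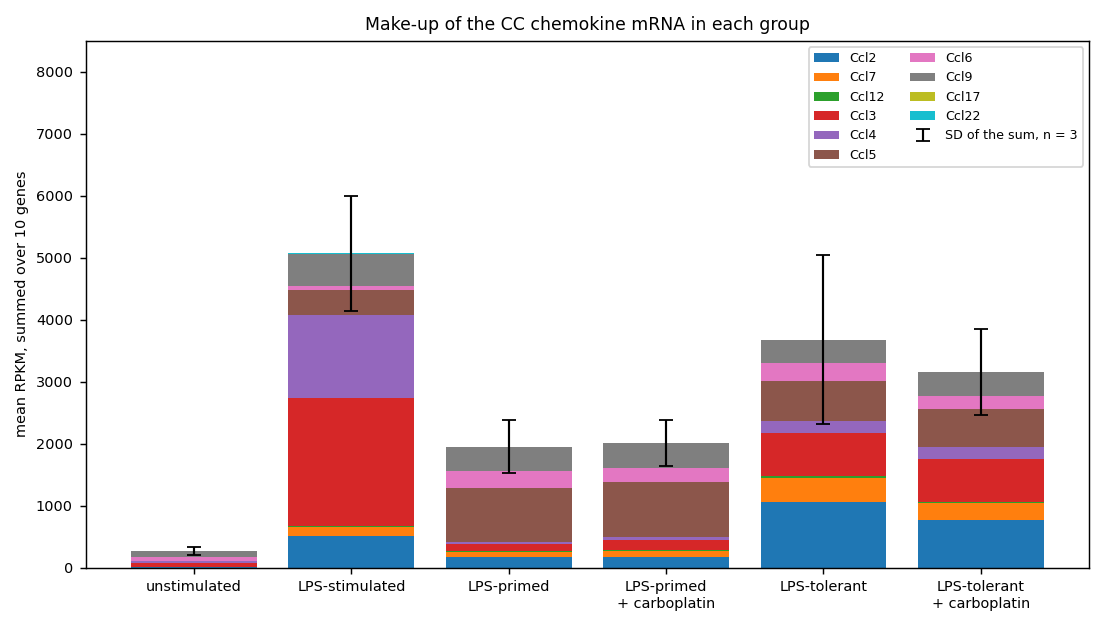
Mean RPKM of the 10 CC chemokines stacked by gene in each of the 6 BMDM groups, with the SD of the sum over 3 replicates. Ccl3 and Ccl4 fill most of the LPS-stimulated bar, Ccl5 and Ccl9 most of the LPS-primed bar, and Ccl2 is the tallest segment in LPS-tolerant BMDMs. Ccl17 and Ccl22 are too scarce to be seen.

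Carboplatin was compared with its absence in each LPS state. In LPS-primed BMDMs 0 of 8 members passed in edgeR, DESeq2 or limma-voom, where 0.372% of tested genes passed in edgeR. In LPS-tolerant BMDMs it was again 0 of 8 by the 3 tools (0.425% of tested genes). Without the replicate block, neither count changed at an adjusted p under 0.25, which 1.2% and 1.65% of tested genes passed. The study also required an absolute log2FC above 2, and with both limits 0.265% and 0.389% of tested genes passed. With the block, no member passed at 0.05, where 1.77% of tested genes did in each state. Under 0.25 in the blocked edgeR fit were Ccl3 (adjusted p = 0.144) and Ccl4 (0.153) in LPS-primed and Ccl12 (0.168) in LPS-tolerant BMDMs. The share of all tested genes at that blocked limit was not counted, so these members cannot be set against a background there. In the fit without the block, an unadjusted p under 0.05 was reached by 2 members in LPS-primed BMDMs, Ccl3 and Ccl4 (6.86% of tested genes). In LPS-tolerant BMDMs it was reached by 1, Ccl12 (6.73%).

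In LPS-primed BMDMs with carboplatin, Ccl4 was at 324, 299 and 308 normalized read counts, above all 3 LPS-primed samples without it. The log2FC was 0.70 (SE 0.26, 95% interval 0.15 to 1.25, adjusted p = 0.483). Ccl3 was at 1622, 724 and 1339, higher in 3 of 3 pairs with overlapping groups (log2FC 0.71, SE 0.33, interval 0.01 to 1.40, adjusted p = 0.709). After the second dose, Ccl4 was at 1227, 1295 and 1203 (log2FC 0.03, interval -0.49 to 0.55) and Ccl3 at 4954, 4549 and 5656 (log2FC 0.01, interval -0.67 to 0.70). The difference between the 2 carboplatin effects did not pass for any member or for any of the 11305 tested genes, 131 of which (1.16%) had an unadjusted p under 0.05. It was -0.67 for Ccl4 (SE 0.36, adjusted p = 1).

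Ccl12 had the lowest log2FC for carboplatin in LPS-tolerant BMDMs among the 8 genes on chromosome 11, though it did not pass the test. LPS-tolerant BMDMs with carboplatin had 138, 107 and 156 normalized read counts, below all 3 LPS-tolerant samples without it, with a log2FC of -1.17 (SE 0.51, interval -2.24 to -0.10, adjusted p = 0.675). In LPS-primed BMDMs its values with carboplatin were 201, 156 and 69.4, lower in 3 of 3 pairs (log2FC -0.40, SE 0.51, adjusted p = 0.983). Averaged over both states the log2FC was -0.79 (SE 0.36, adjusted p = 0.396), in a comparison where 1.99% of tested genes and 0 of 8 members passed.

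The intervals of Ccl9, Ccl5 and Ccl6 were narrower than those of the CCR2 ligands. Ccl9 with carboplatin was at 12694, 12318 and 9429 in LPS-primed and 12028, 11112 and 9677 in LPS-tolerant BMDMs, with log2FC of 0.02 (interval -0.33 to 0.38) and -0.02 (-0.37 to 0.34). Ccl5 was at 8928, 8998 and 7506 in the former and 7192, 6183 and 3938 in the latter, with log2FC of 0.02 (interval -0.73 to 0.78) and -0.09 (-0.84 to 0.67). Ccl6 was at 4158, 4332 and 2982, and then at 4309.9, 3929 and 2988, lower in 3 of 3 pairs in both states (log2FC -0.32, interval -0.88 to 0.23, and -0.40, -0.95 to 0.15). Ccl2 and Ccl7 varied more between replicates. Ccl2 was at 3209, 1529 and 865 and then at 12579.6, 4763 and 7191, and its intervals were -1.53 to 1.64 and -2.04 to 1.12. Ccl7, at 1143, 553 and 230.4 and then at 3338, 1209 and 1428, had intervals of -1.63 to 1.86 and -2.24 to 1.21. Ccl17 and Ccl22 had 1 read or 0 in each sample with carboplatin.

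**Figure D4:**
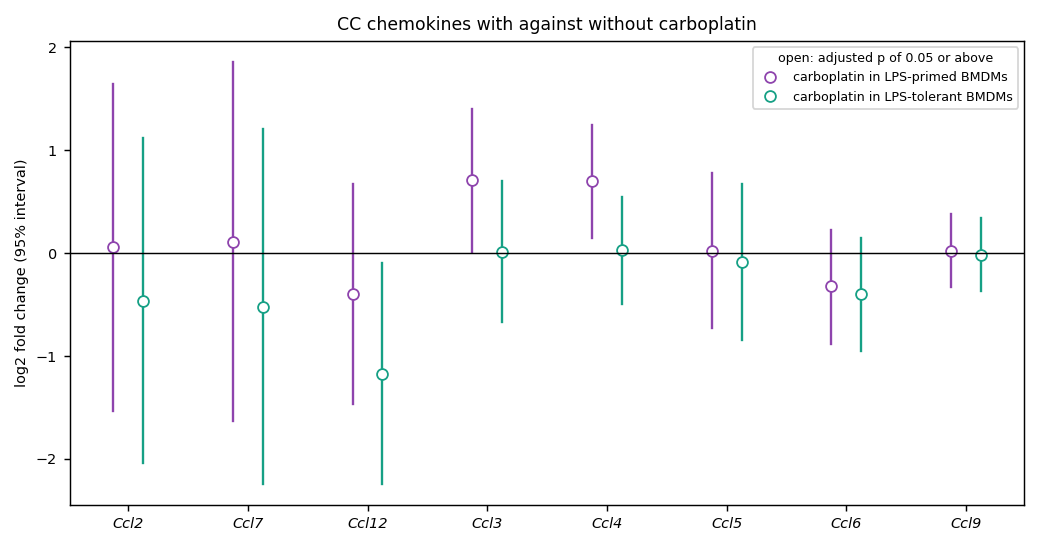
Log2 fold changes with 95% intervals of carboplatin against no carboplatin for the 8 CC chemokines on chromosome 11, in LPS-primed and in LPS-tolerant BMDMs. No point passed an adjusted p of 0.05. The points of Ccl3 and Ccl4 lie at 0.71 and 0.70 in LPS-primed and at 0.01 and 0.03 in LPS-tolerant BMDMs, and Ccl12 has the lowest point, -1.17.

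The re-induction also took place when carboplatin had been present. In LPS-tolerant against LPS-primed BMDMs that had both received the drug, Ccl3 rose by a log2FC of 2.04 (SE 0.34, adjusted p = 0.00319) and Ccl4 by 2 (SE 0.26, adjusted p = 0.000477), which made 2 of 8 members up and 0 down, where 1.29% of tested genes rose and 0.69% fell. With the replicate block, Ccl2 (log2FC 2.22, SE 0.34, adjusted p = 0.000422, against 2.13, SE 0.78 and adjusted p = 0.189 without it) and Ccl7 (1.75, SE 0.32, adjusted p = 0.00245, against 1.64, SE 0.84 and 0.394) rose too, where 5.28% of tested genes did. The other 4 members on chromosome 11 did not pass in either fit, and Ccl5 again had a value below 0 (log2FC -0.55, SE 0.36, adjusted p = 0.535).

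Receptor transcripts also changed in BMDMs. Ccr1, the receptor of Ccl3, Ccl5, Ccl6 and Ccl9, rose by a log2FC of 3.79 (SE 0.37, adjusted p = 3.01e-07) and was 6.19 above unstimulated cells at 24 h (SE 0.40, adjusted p = 6.93e-09). Ccr3, an eotaxin receptor, rose by 3.39 (SE 0.87, adjusted p = 0.00391) and Ccrl2, an atypical receptor that binds chemerin, by 2.88 (SE 0.38, adjusted p = 9.96e-06). Ccr2, the receptor of Ccl2, Ccl7 and Ccl12, fell at 24 h to a mean of 86.5 from 353 normalized read counts (log2FC -2.03, SE 0.53, adjusted p = 0.00868). None of these 4 receptors passed the test for the second dose in edgeR, where Ccr2 was at a log2FC of -1.78 (SE 0.58, adjusted p = 0.077, or 0.000731 under the replicate block), or for carboplatin in either state.

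Of 12 other CC chemokine genes, 4 passed the filter. Ccl8, a ligand of CCR8 in mice, rose by 2.10 (SE 0.61, adjusted p = 0.00903) in the first response and by 5.38 (SE 0.55, adjusted p = 1.34e-06) at 24 h. Ccl24, an eotaxin, was also highest in LPS-stimulated BMDMs, with means of 3.2 normalized read counts in unstimulated, 41.9 in LPS-stimulated, 0.38 in LPS-primed and 2.05 in LPS-tolerant BMDMs. Ccl24 passed the expression filter only through LPS-stimulated BMDMs, with 24 to 78 reads per sample there and 6 or less in every other sample. No test is therefore given for it. The second dose moved none of Ccl8, Ccl25 and Ccl27a past the test, where 3.60% of all tested genes rose and 2.71% fell. Ccl27a had few reads there, 2 to 10 per LPS-primed and 1 to 6 per LPS-tolerant sample.

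Among 33 genes of LPS sensing and transcription control, 32 were tested. In the first response 20 rose and 6 fell, where 24.3% and 26.9% of all tested genes did. At 24 h 13 were higher and 2 lower (12.1% and 13.1% of all). After the second dose 3 rose and 6 fell (3.60% and 2.71%), or 5 and 8 with the replicate block (9.67% and 8.32%). Nfkbia, which encodes an inhibitor of NF-κB that NF-κB itself induces, rose by 4.74 (SE 0.20, adjusted p = 2.61e-11) in the first response and its second response differed from the first by -4.48 (SE 0.26, adjusted p = 2.7e-09). Irak3, a brake on TLR signalling, was up by 3.37 at 24 h (SE 0.19, adjusted p = 1.7e-09). Irf4 was, like Ccl22, highest in LPS-stimulated BMDMs, with means of 14.4 normalized read counts in unstimulated, 135 in LPS-stimulated and 0.874 or less in the other 4 groups. Zfp36, whose product hastens the decay of AU-rich mRNAs, had means of 759, 8298, 749 and 629.6 in unstimulated, LPS-stimulated, LPS-primed and LPS-tolerant BMDMs. For carboplatin 0 of 32 passed in each state without the block, where 0.372% of all tested genes did in LPS-primed and 0.425% in LPS-tolerant BMDMs. Irf8, a factor of macrophage development, was at a log2FC of -0.53 in LPS-tolerant BMDMs (adjusted p = 0.18, or 0.0412 under the block), and averaged over the states it was lower by a log2FC of -0.44 (SE 0.10, adjusted p = 0.0396).

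The genes whose log2 CPM followed the members most closely over the 18 samples were named by Pearson r, as a description. For Ccl2 they were Slc15a3 (r = 0.955) and Pdpn (0.951), and the same pair led for Ccl7 (0.962 and 0.959). Il2rg was closest to Ccl12 (0.958, then Hk1 with 0.942) and to Ccl5 (0.98, then Sod2 with 0.974). Ccl3 was followed by Acot9 (0.971) and Tes (0.962), and Ccl4 by Nop2 (0.98) and Dcaf13 (0.98). Ctsh (0.966) and Pf4 (0.965) were nearest to Ccl6, and Gja1 (0.97) and Cpne2 (0.968) to Ccl9. For Ccl22 the nearest were Sele (0.988) and Inava (0.987). Ccl22 had almost no reads outside LPS-stimulated BMDMs, so its r is set by that group and describes no likeness among the others. These samples share libraries, depth and a common set of treatments.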

How the data were processed

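RNA of mouse BMDMs was sequenced with a stranded mRNA kit in 18 libraries. The authors aligned read pairs to GRCm39 with HISAT2 and deposited raw counts per gene symbol from HTSeq-count, without normalization. Versions, annotation and strand option are not given in the sources used here. Rows that name no gene (41.5% to 46.9% of pairs per sample) were left out. Counts were tested with the quasi-likelihood F test of edgeR 4.0.16 in R 4.3.3, with all 18 samples and a mean per group, TMM normalization and the default filter (minimum count 10, minimum total 15), with Benjamini-Hochberg adjustment over 11305 genes. The SE is the absolute log2FC (prior count 0.125) over the square root of F. Normalized read counts are counts over the TMM-scaled library size times the mean size, and RPKM uses GENCODE exon lengths. The script was tested on simulated data. Alternatives were other size factors and filters, DESeq2 1.42.0, limma-voom (3.58.1), other limits, a replicate block, fits of the compared groups and leaving out samples.

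The members and the gene lists were chosen with earlier results of these data known. All members are named, with up to 3 genes per other list and comparison (largest change past the test) and the 2 genes nearest to each member. Deviations from the group means correlated between samples of the same number (r over 0.1 in 44 of 45 pairs, mean 0.35), and in 9 of 11 comparisons every pair did. Of these 9, blocked values stand beside results where the block changed which members passed. In the first response and the 24 h level, 7 and 6 of 8 members rose with the block as without it. There 29.5% and 18.9% of tested genes rose with the block. Whether the numbers mark animals or batches is not stated. At this depth a gene with 3 reads or fewer over a group was taken to be at a floor. One gene of the receptor list is not reported here.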

Additional observations from a re-analysis of the deposited data

Results flagged for a closer look

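For 7 members the response to the second LPS dose (LPS-tolerant against LPS-primed BMDMs) was smaller than the response to the first (LPS-stimulated against unstimulated BMDMs). The difference itself was tested across the 4 groups in edgeR, where 13.3% of tested genes fell and 10.5% rose. The difference of the log2FC values was -5.85 for Ccl5, -4.04 for Ccl7, -3.80 for Ccl2, -3.37 for Ccl4, -2.97 for Ccl12, -2.32 for Ccl9 and -2.05 for Ccl3. Unstimulated replicate 1 held the highest of the 3 unstimulated values for all 7 genes. Its part in these differences was not tested beyond leaving it out, which ended none of the 7 calls. The calls of Ccl2, Ccl7 and Ccl12 were lost without some of the other samples and did not pass in limma-voom, as given in the Results.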

How the results depend on the processing

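The counts here include Ccl22, so they differ from the counts over 8 genes in the Results. Ccl22 was tested only through its high group, so its calls against LPS-stimulated BMDMs say nothing of how stable the counts are. Among counts of members past the test, 133 stayed within 1.5 times the reported count under the alternatives other than leaving out single samples, and 10 did not. Requiring 10 counts in each sample, which drops Ccl7, Ccl12 and Ccl22 from testing, gave 5 in the first response (52.4% of tested genes) and 3 for LPS-tolerant against LPS-stimulated BMDMs (35%). At an adjusted p under 0.25 the latter was 8 (55.2%) and the second dose 4 (22.2%, or 1.17% with the log2FC limit of 2, which also left 4). Without replicate 1 of all groups, an alternative chosen after seeing the data, they were 8 (35.8%) and 4 (6.49%). Leaving out single samples gave 8 in the first response, 6 to 7 at 24 h and 4 to 7 for LPS-primed against LPS-stimulated. It gave 2 to 3 for the second dose, 5 to 8 for LPS-tolerant against LPS-stimulated and 2 for the second dose under carboplatin. The second minus the first response had 4 to 7, and carboplatin had 0. Shares of all tested genes were not counted in these fits. With all samples they were 51.2%, 25.2%, 44.6%, 6.31%, 34.5%, 1.98% and 23.8% in this order, and 1.99% or less for carboplatin.

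With the replicate block, 4 members passed for the second dose (18% of tested genes) and 4 for the second dose under carboplatin (9.2%). For LPS-tolerant against LPS-stimulated BMDMs 8 passed (47.6%). Between LPS-primed and LPS-stimulated BMDMs the numbers did not pair the samples throughout (lowest r 0.06), and the block gave 3 higher and 5 lower (28.6% and 28.8% of tested genes), with Ccl2 at -1.30 (adjusted p = 0.00267) and Ccl9 at -0.43 (0.0134) newly passing. The block turned Ccl12 in the second dose under carboplatin to 0.05.

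Among log2FC values, 837 kept direction and side of the threshold, 27 newly passed, 4 no longer passed and 17 changed sign or reached 0, none of these 17 past the test. Library size alone, which moved the median of all genes in the first response from -0.09 to -0.43, gave -0.15 for Ccl6 there, -0.06 for Ccl6 in the second dose, 0.09 for Ccl6 in the second minus the first response, 0.05 for Ccl9 with carboplatin in LPS-tolerant cells, 0.01 for Ccl5 in the carboplatin average and 0 for Ccl9 in the carboplatin difference. DESeq2 and its size factors gave 0 for Ccl3 with carboplatin in LPS-tolerant cells and for Ccl9 in the average. The limma-voom test gave 0 for Ccl6 in the second dose and 0.07 for Ccl12 in that under carboplatin. Without replicate 1 of all groups these were -0.08 and 0.22, and Ccl9 with carboplatin in LPS-tolerant cells was 0.04. The cause was not tested.

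Leaving out single samples also changed signs near 0. Ccl7 between LPS-primed and LPS-stimulated cells ranged from -1.71 to 0.67 and Ccl6 in the second minus the first response from -0.53 to 0.11. In the second dose Ccl6 ranged from -0.34 to 0.29 and Ccl9 from -0.17 to 0.09, and under carboplatin Ccl12 from -0.42 to 0.24, Ccl6 from -0.18 to 0.11 and Ccl9 from -0.20 to 0.01. For carboplatin in LPS-primed cells the ranges were -0.58 to 0.92 (Ccl2), -0.59 to 0.91 (Ccl7), -0.11 to 0.16 (Ccl5) and -0.10 to 0.15 (Ccl9). In LPS-tolerant cells they were -0.91 to 0.17 (Ccl2), -1.11 to 0.38 (Ccl7), -0.18 to 0.16 (Ccl3), -0.08 to 0.09 (Ccl4), -0.27 to 0.13 (Ccl5) and -0.09 to 0.13 (Ccl9). For the average they were -0.52 to 0.23 (Ccl2), -0.55 to 0.25 (Ccl7), -0.12 to 0.08 (Ccl5) and -0.06 to 0.08 (Ccl9), and for the difference -1.38 to 0.12 (Ccl2), -1.42 to 0.26 (Ccl7), -0.30 to 0.10 (Ccl5), -0.33 to 0.30 (Ccl6) and -0.18 to 0.10 (Ccl9). Depth limited Ccl17 and Ccl22, which had at most 1 read per sample outside LPS-stimulated BMDMs.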

Other observations

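Ccr2, which encodes the receptor of Ccl2, Ccl7 and Ccl12, was below its unstimulated mean in all 5 groups given LPS. Its mean was 353 normalized read counts in unstimulated, 82.5 in LPS-stimulated, 86.5 in LPS-primed and 24.5 in LPS-tolerant BMDMs, and with carboplatin it was 59.7 in LPS-primed and 18.9 in LPS-tolerant BMDMs. Ccl8 was lower with carboplatin by a log2FC of -1.01 averaged over both LPS states (SE 0.28, adjusted p = 0.0824, and 0.0167 with the block). Both genes were singled out after their values were seen.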
